A study of Macaca mulatta with 16 samples.

Results

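The MHC class II antigen presentation genes HLA-DRA, HLA-DPA1, HLA-DPB1, HLA-DMA, HLA-DMB, CD74 and CIITA are described here across extraocular muscle, the muscle that moves the eye, of the rhesus macaque. They are 7 of the 17518 genes that have a probe set of their own on the arrays. Every probe set whose annotated symbol was one of these names was taken, which gave 12 of 22283 probe sets on the U133A array, covering all 7 genes, and 1 of 22645 on U133B, for HLA-DPB1. None of the 13 carried a second symbol. The study compared the orbital and the global layer of the muscle, dissected apart, and the whole lateral and medial rectus. Each group had 2 arrays of either type, 16 arrays in all. All tissue came from adult monkeys. The labels give no other age, no genotype or treatment, and do not say whether arrays of a group came from separate animals, so p-values measure the spread between these arrays, which may be technical. Layer RNA was amplified with T7 polymerase before labelling, and 1 label names a laser as the dissection tool. Whole muscle RNA followed the standard Affymetrix protocol.

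MHC class II molecules are pairs of an alpha and a beta chain on the cell surface that show peptides from engulfed material to CD4 T cells. The invariant chain CD74 holds the groove of a new pair closed on its way to the endosome, and the DM pair then exchanges the remaining fragment of CD74 for a peptide. CIITA is the coactivator that the class II promoters depend on. Dendritic cells, macrophages and B cells make these molecules constantly, and many other cells do so under interferon gamma. Muscle fibres at rest are known for very little class II. In macaques the chain genes carry the prefix Mamu in place of HLA, and 6 of the 7 genes had an entry in the macaque RefSeq gene table. HLA-DPB1 was not matched. The macaque genes for DMA and DMB lie next to each other in that table, with 0 protein-coding genes between them.

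The probes were designed on human sequence and hybridised to macaque RNA. How far a mismatch dims a probe set, or related class II genes add to it, was not tested, so levels are compared between arrays for the same probe set and never between probe sets. Intensities are on the linear scale of the deposited tables. The 8 U133A arrays had median intensities of 476 to 587 in the layers and 788 to 852 in whole muscle. The ratio of the 3′ to the 5′ probe sets of the control transcript ACTB was 2.84 to 5.87 on the layer arrays and 0.716 to 1.04 on the whole muscle arrays. Layer dissection, amplification and this ratio all moved with the same split of the arrays, so their effects on the class II genes cannot be told apart. Muscle itself was plain in every library, since 12 skeletal muscle markers summed to between 690899 and 902053 units per U133A array. On U133A the array titled orbital layer replicate 1 has a source name that says global layer. It is used by its title, and results between the layers are also given without it. For the comparison of layers with whole muscle either label puts it among the layers.

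HLA-DRA encodes the alpha chain of HLA-DR. Its probe set 208894_at read 4188.2 and 3623.1 units on the orbital layer arrays and 2426.5 and 4575.4 on the global layer arrays. It read 7543.9 and 12178.1 on the lateral rectus arrays and 7754.2 and 8715.5 on the medial rectus arrays. All 4 whole muscle arrays lay above all 4 layer arrays, while both layers overlapped each other and the 2 muscles overlapped as well. In order of the means, lateral rectus stood at 9861 ± 3277 units (SD, n = 2), medial rectus at 8235 ± 680, orbital layer at 3906 ± 400 and global layer at 3501 ± 1520. Only the step from medial rectus to orbital layer separated neighbouring groups. The second HLA-DRA probe set, 210982_s_at, behaved differently. It read 802.7 and 1319.6 units in the orbital layer, 218.4 and 1619.8 in the global layer, 434.9 and 728.4 in the lateral rectus and 864.1 and 1372.4 in the medial rectus. Its lowest and highest arrays were both global layer arrays, and no group stood apart from the next in order of the means.

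HLA-DPA1 encodes the alpha chain of HLA-DP and has 3 probe sets. The probe set 211991_s_at had the narrowest range of the 3, from 2453.9 units on a lateral rectus array to 4519.4 on a global layer array. Its group means fell between 3406 and 3795 units, and no neighbouring groups separated. For 211990_at the arrays of a group differed widely: the global layer read 6931.8 and 2072.6 units, the medial rectus 5813.6 and 2136.0, and the orbital layer 3272.3 and 1041.0. The lateral rectus arrays, at 2906.6 and 2698.1, were the closest pair for this probe set, and again no groups separated. The probe set 213537_at was dim, from 99.6 to 1119.8 units, with both extremes on whole muscle arrays.

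HLA-DPB1, the beta chain of HLA-DP, was read by 1 probe set on each array type. On U133A, 201137_s_at read 6299.7 and 8407.5 units in the orbital layer, 8696.0 and 10023.8 in the global layer, 5734.4 and 5918.4 in the lateral rectus and 4965.2 and 6373.6 in the medial rectus. The global layer was the highest group and lay above the orbital layer, and the whole muscle arrays were lower, with 1 medial rectus array above the lower orbital layer array. On U133B, 244485_at read 1050.2 and 532.2 units in the orbital layer and 1119.5 and 588.5 in the global layer. The same probe set read 1700.9 and 1253.3 in the lateral rectus and 1297.5 and 1580.8 in the medial rectus. Here all 4 whole muscle arrays were above all 4 layer arrays, the opposite order to the U133A probe set of the same gene.

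HLA-DMA and HLA-DMB encode the chains of the peptide-loading DM pair. HLA-DMA (217478_s_at) read 2239.0 and 3053.0 units in the orbital layer, 1977.7 and 3711.8 in the global layer, 2888.7 and 2366.1 in the lateral rectus and 2247.3 and 1437.2 in the medial rectus. The medial rectus was lowest, and its arrays lay below both lateral rectus arrays. HLA-DMB (203932_at) was among the steadiest class II probe sets, from 3149.5 units on an orbital layer array to 5334.4 on a lateral rectus array. Its group means of 4529 units in the lateral rectus, 4491 in the global layer, 4276 in the medial rectus and 3801 in the orbital layer did not separate.

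CD74, the invariant chain, read 1724.2 and 1479.5 units in the orbital layer and 3486.7 and 2169.9 in the global layer (209619_at). It read 5949.3 and 4987.0 in the lateral rectus and 5705.2 and 4269.0 in the medial rectus. The groups fell into 3 steps: both muscles together at the top, then the global layer, then the orbital layer, with no overlap between the steps. The means were 5468 ± 680 units in the lateral rectus, 4987 ± 1016 in the medial rectus, 2828 ± 931 in the global layer and 1602 ± 173 in the orbital layer (SD, n = 2).

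CIITA, the class II coactivator, has 3 probe sets on U133A. The brightest, 210925_at, read 135.9 and 632.1 units in the orbital layer and 1098.6 and 688.4 in the global layer. It read 3630.0 and 1563.8 in the lateral rectus and 2839.8 and 1321.8 in the medial rectus. As for CD74, the muscles overlapped, lay above the global layer, and the global layer lay above the orbital layer. The reading of 135.9 is below the floor of 146.487 units, the 20th percentile of the table, to which lower values were raised before log2 was taken. For 211884_s_at all 4 layer arrays lay below the floor, at 53.8 to 126.6 units, while the whole muscle arrays read 916.4, 157.9, 713.6 and 824.3. For 205101_at the floor exceeded 6 of the 8 arrays, and the other 2 were whole muscle arrays at 241.1 and 239.1 units. Values below the floor have no order, so no fold change is given for these last probe sets.

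**Figure D1:**
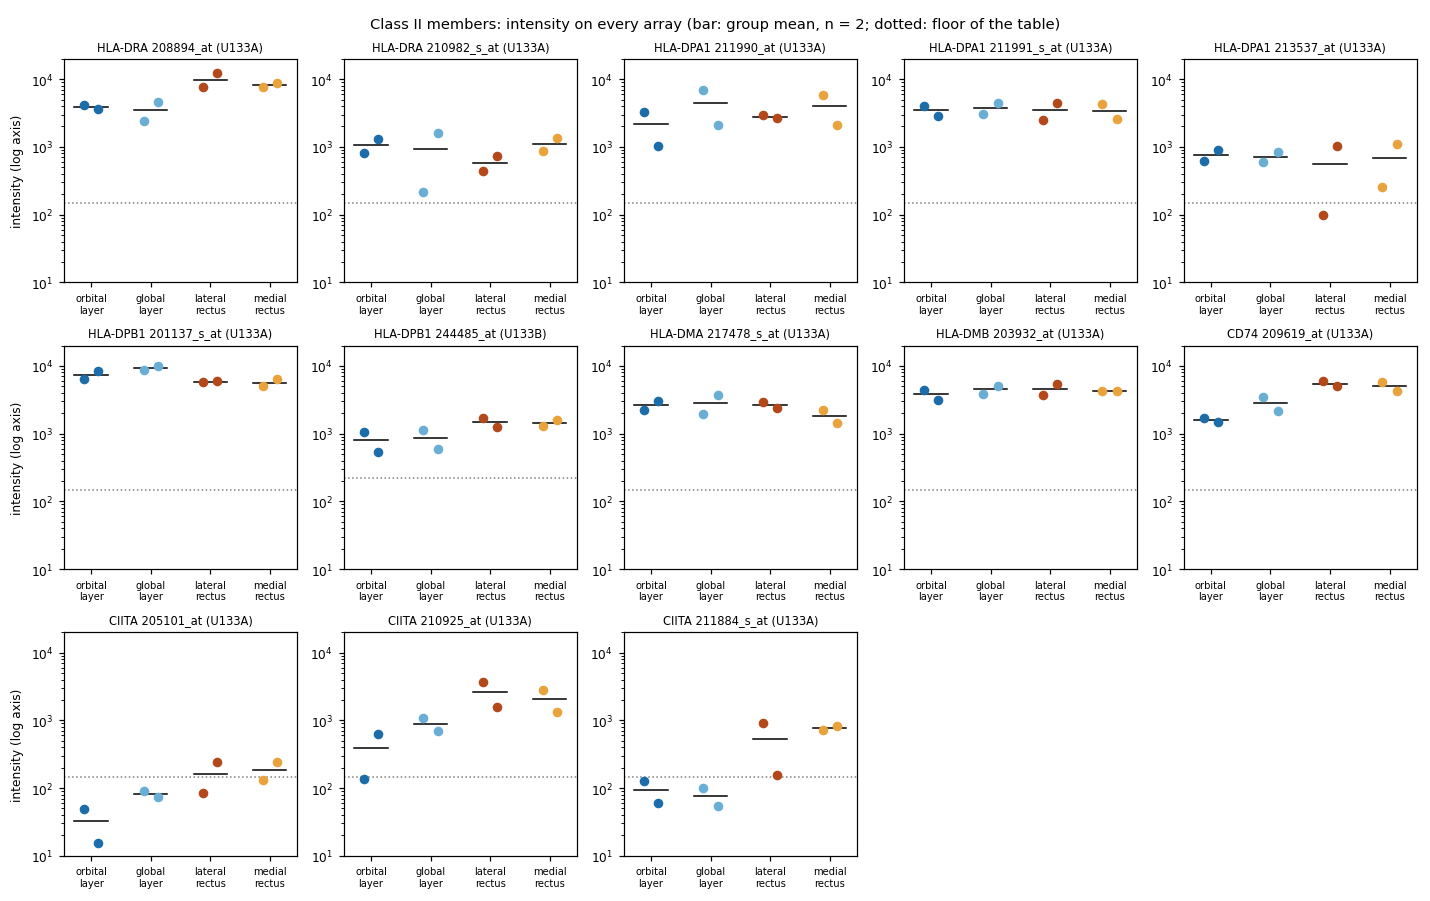
Deposited intensity (log axis) of the 13 class II probe sets on every array, with bars at the group means of 2 arrays and a dotted line at the floor of the table. HLA-DRA 208894_at, CD74 and CIITA 210925_at sit higher on all whole muscle arrays than on all layer arrays, HLA-DPB1 201137_s_at runs the other way, and HLA-DMB is level across the groups.

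The orbital layer holds the outer fibres, which insert on the connective tissue pulleys of the orbit, and the global layer holds the fibres that rotate the eye. Between these layers no class II gene passed the test in limma. Of the 12 U133A probe sets 9 were bright enough to be tested, and 0 were called at an adjusted p under 0.05, against 0.409% of the 9532 probe sets tested in the table. CD74 differed most clearly: it was lower in the orbital layer by -0.78 ± 0.30 on the log2 scale (SE), with an adjusted p of 0.471 and an unadjusted p of 0.0333. It was the only one of the 9 with an unadjusted p under 0.05, a mark that 9.49% of all tested probe sets reached. HLA-DPB1 was lower in the orbital layer by -0.36 ± 0.25 (adjusted p = 0.682). CD74 and HLA-DPB1 were also the 2 whose layer groups did not overlap, both lower, and 23.4% of all tested probe sets had that pattern.

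The other probe sets gave values on both sides of 0. HLA-DRA differed by 0.23 ± 0.34 (208894_at, adjusted p = 0.859) and by 0.79 ± 0.82 (210982_s_at, adjusted p = 0.780). HLA-DPA1 differed by -1.04 ± 0.65 (211990_at, adjusted p = 0.646), -0.13 ± 0.30 (211991_s_at) and 0.08 ± 0.38 (213537_at). HLA-DMB differed by -0.25 ± 0.29 and HLA-DMA by -0.05 ± 0.35. The median of the 9 was -0.13, beside -0.04 over all tested probe sets. Without the array whose labels disagree, CD74 stood at -0.89 and HLA-DPB1 at -0.15. The HLA-DPA1 probe sets disagreed there, at -1.86 (211990_at), -0.38 (211991_s_at) and 0.35 (213537_at). A single orbital array was left, so this fit holds no spread for the orbital layer and only sizes of difference are given. The global layer arrays of 211990_at themselves read 6931.8 and 2072.6 units. No CIITA probe set and no HLA-DPB1 probe set on U133B reached the filter in this comparison.

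Between the 2 whole muscles no class II gene passed the test. The lateral rectus turns the eye outward and the medial rectus turns it inward. Again 0 of 9 tested U133A probe sets were called, and so were 0% of the 11907 tested in the table. None of the 9 had an unadjusted p under 0.05, a mark that 333 of the table reached, or 2.8%. HLA-DMA was lower in the medial rectus by -0.54 ± 0.32 with no overlap, a pattern found in 13.6% of all tested probe sets. HLA-DRA 210982_s_at was higher in the medial rectus by 0.95 ± 0.58, also with no overlap, as in 15% of the table. HLA-DRA 208894_at differed by -0.22 ± 0.26, CD74 by -0.14 ± 0.25, CIITA 210925_at by -0.30 ± 0.49, HLA-DPB1 by -0.05 ± 0.23 on U133A and -0.03 ± 0.56 on U133B, and HLA-DMB by -0.06 ± 0.26. HLA-DPA1 differed by 0.33 ± 0.43 (211990_at) and -0.01 ± 0.37 (211991_s_at). Each of these values had an adjusted p of 0.999. With 2 arrays a group these standard errors leave room for differences of the sizes seen, so the p-values do not show that the muscles are alike.

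Between the layers and whole muscle the class II genes did not all go the same way. The alpha chain HLA-DRA, the invariant chain CD74 and the coactivator CIITA were lower in the layers, HLA-DPB1 was higher on U133A, and the DM pair and HLA-DPA1 did not pass the test. HLA-DRA (208894_at) averaged 3703 ± 937 units in the layers against 9048 ± 2148 in whole muscle (SD, n = 4 each), a difference of -1.30 ± 0.23 on the log2 scale or 2.46-fold, with an adjusted p of 8.66e-04 in limma. CD74 averaged 2215 ± 895 in the layers against 5228 ± 758 in whole muscle, -1.31 ± 0.25 or 2.47-fold (adjusted p = 0.00153). CIITA (210925_at) averaged 639 ± 394 in the layers against 2339 ± 1088 in whole muscle, -2.06 ± 0.55 or 4.18-fold (adjusted p = 0.00867). Its layer mean lay under the filter of 653.942 units, so it was tested only through its whole muscle level, and with no filter it was not called (adjusted p = 0.0542). In all 3 the groups did not overlap. HLA-DPB1 (201137_s_at) averaged 8357 ± 1541 in the layers against 5748 ± 587 in whole muscle, 0.53 ± 0.18 or 1.44-fold higher (adjusted p = 0.0263), with overlap.

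These 4 calls out of 9 tested probe sets stand beside 48.7% of the 10533 probe sets called in the whole table, so the share is close to the background. The 3 lower calls stand beside 30.1% of the table called lower, and the 1 higher call beside 18.6%. A lower group without overlap was found in 27.3% of the table. The median of all tested probe sets was itself -0.18, and the median of the 9 was -0.10. After quantile normalization, which brings the median of the table to 0.00 and the table's calls from 1964 higher and 3168 lower to 2073 higher and 2043 lower, HLA-DRA stood at -1.57, CD74 at -1.32 and CIITA at -1.61, all still called. Under the same normalization HLA-DPB1 was 0.20 with an adjusted p of 0.376, and it was no longer called without global layer replicate 2 (0.43, adjusted p = 0.0748), orbital layer replicate 2 (0.52, 0.0535), lateral rectus replicate 1 (0.53, 0.0518) or medial rectus replicate 1 (0.46, 0.0749). The CIITA difference rested in part on 1 array. Without orbital layer replicate 1, the array at the floor, it was -1.46 (adjusted p = 0.00874).

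The probe sets of HLA-DRA and of HLA-DPB1 disagreed within the gene. HLA-DRA 210982_s_at was 0.00 ± 0.57 (adjusted p = 0.999), where 208894_at fell by 1.30 on the log2 scale. HLA-DPB1 244485_at on U133B was lower in the layers by -0.89 ± 0.39 with no overlap and an adjusted p of 0.0806, where 201137_s_at on U133A was higher. In the U133B fit 42.8% of 10547 probe sets were called, and 21.6% were lower with no overlap. HLA-DMB differed by -0.10 ± 0.19 (adjusted p = 0.697), HLA-DMA by 0.30 ± 0.26 (0.366), and HLA-DPA1 by -0.25 ± 0.49 (211990_at, 0.694) and 0.10 ± 0.25 (211991_s_at, 0.755). In bulk tissue, fewer cells of a class II type and less class II RNA per cell cannot be told apart.

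**Figure D2:**
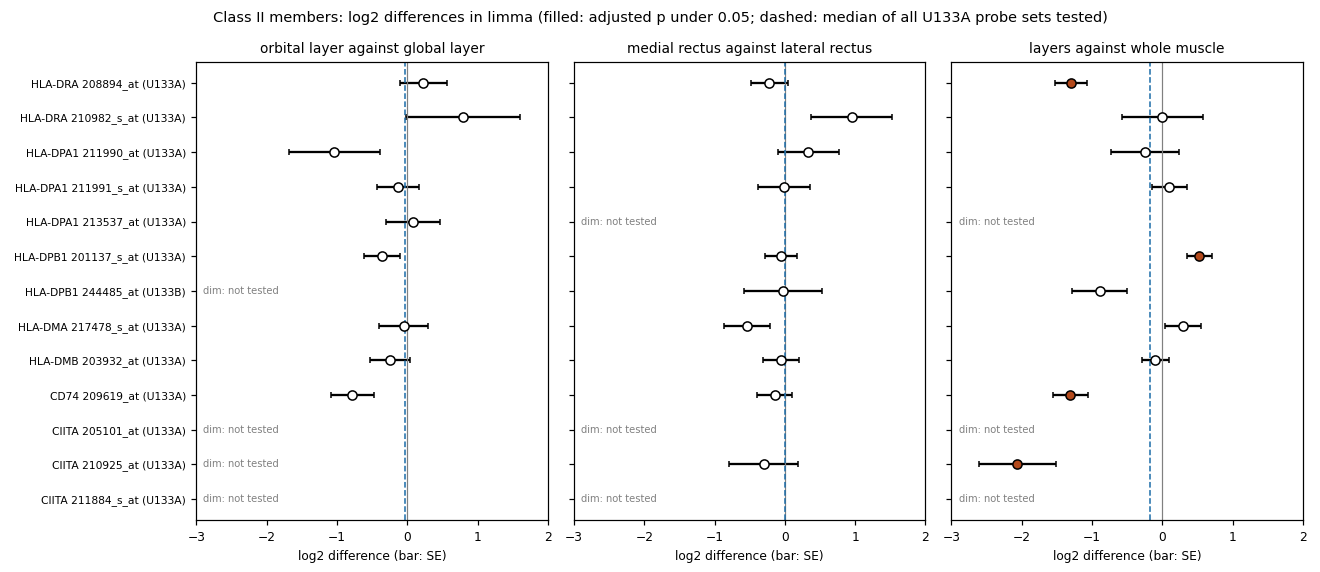
Log2 difference with its SE for each class II probe set in the 3 comparisons, the dashed line marking the median of all U133A probe sets tested. Filled points passed an adjusted p of 0.05: HLA-DRA 208894_at at -1.30, CD74 at -1.31, CIITA 210925_at at -2.06 and HLA-DPB1 201137_s_at at 0.53, all in layers against whole muscle.

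Other genes of the pathway were read from lists, with 1 probe set per gene. No gene of these lists was called between the layers or between the muscles on either array type. The smallest adjusted p between the layers belonged to PDIA3, a chaperone of class I loading, at 1.40 ± 0.26 higher in the orbital layer (0.103). JAK2, a kinase of the interferon gamma receptor, stood at -1.18 ± 0.45 there (adjusted p = 0.464). In layers against whole muscle, the other class II chains had 3 tested genes on U133A. HLA-DRB1, the beta chain that pairs with HLA-DRA, averaged 20220 ± 4271 units in the layers against 12410 ± 1109 in whole muscle, higher by 0.68 ± 0.17 (adjusted p = 0.0063). HLA-DOA, a chain of the DO pair that restrains DM, was lower at -0.94 ± 0.23 (adjusted p = 0.0059), while its U133B probe set stood at 1.18 ± 0.48 (adjusted p = 0.0619). HLA-DQB1 was at -0.10 ± 0.27. HLA-DRA and HLA-DRB1 encode the chains of 1 heterodimer. The HLA-DRA probe set 208894_at and the HLA-DRB1 probe set passed the test in opposite directions. The other HLA-DRA probe set, 210982_s_at, did not pass (adjusted p = 0.999 in limma). How far related class II genes add to these probe sets was not tested, so discordant chains are not shown.

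The peptide-processing genes had 7 tested members, of which 3 rose, 1 fell and 3 did not pass, with a median of 0.39. The endosomal proteases CTSL (1.47 ± 0.18) and CTSF (1.66 ± 0.23) and the ubiquitin ligase MARCHF8 (1.17 ± 0.34), which removes class II from the cell surface, were higher in the layers. The protease CTSB was lower, at -1.03 ± 0.20. CTSS, which trims CD74 in antigen-presenting cells, stood at -0.48 ± 0.19 with an adjusted p of 0.0571 on U133A and at -0.59 ± 0.24 with an adjusted p of 0.0589 on U133B. On U133B the adaptor subunit AP1M1 was lower at -1.15 ± 0.40 (adjusted p = 0.0345).

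The transcription factors of the class II promoters and of CIITA had 11 tested members on U133A, with a median of -0.43. RFX5, a subunit of the complex that binds the X box of class II promoters, fell from 2413 ± 642 units in whole muscle to 1123 ± 587 in the layers, -1.22 ± 0.36 (adjusted p = 0.0141). IRF4 (-1.63 ± 0.37), IRF2 (-1.20 ± 0.18) and NFYC (-0.69 ± 0.20), a subunit of the factor that binds the Y box, were lower too. CREB1 (1.18 ± 0.18) and the acetyltransferase KAT2B (0.85 ± 0.18) were higher, and the other 5 did not pass. On U133B, CREB1 (2.46 ± 0.25) and its coactivator CREBBP (1.83 ± 0.45) were higher and PRDM1, a repressor of CIITA in plasma cells, was lower (-1.47 ± 0.43).

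Of the class I presentation genes, which show peptides made inside the cell, 14 were tested, 3 rose, 4 fell and 7 did not pass, with a median of -0.20. B2M, the light chain of class I, averaged 26491 ± 12318 units in the layers against 53240 ± 9038 in whole muscle, -1.10 ± 0.27 (adjusted p = 0.0056). HLA-F (-0.63 ± 0.16), the peptide transporter subunit TAP2 (-0.90 ± 0.27) and the immunoproteasome subunit PSMB9 (-0.63 ± 0.22) were lower, and HLA-C (0.51 ± 0.18), PSME1 (0.60 ± 0.16) and PSMB10 (2.17 ± 0.32) were higher. The interferon response list had 25 tested genes, of which 8 fell, 1 rose and 16 did not pass, with a median of -0.56. The 8 were IFIT2 (-2.37 ± 0.30), CXCL10 (-1.61 ± 0.37), OAS2 (-1.58 ± 0.29), CXCL9 (-1.36 ± 0.28), IFNGR1 (-1.02 ± 0.29), MX1 (-0.96 ± 0.27), IFNGR2 (-0.89 ± 0.22) and IFI35 (-0.74 ± 0.22). IFNGR1 and IFNGR2 encode the receptor for interferon gamma, and CXCL9 and CXCL10 are chemokines that it induces. The exception was IDO1, a tryptophan-degrading enzyme, at 1.41 ± 0.43. These counts are read against the same background of 30.1% lower and 18.6% higher. CIITA, IRF4, IFIT2 and CXCL9 were called with a layer mean under the filter, so each was tested only because it was bright in whole muscle. The same holds for CXCL10, whose layer arrays read 960.7, 690.1, 951.3 and 259.3 units. Their mean log2 level, on which the filter acts, lay under it. The other genes were found by their linear mean, so further such genes may be missing here.

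**Figure D3:**
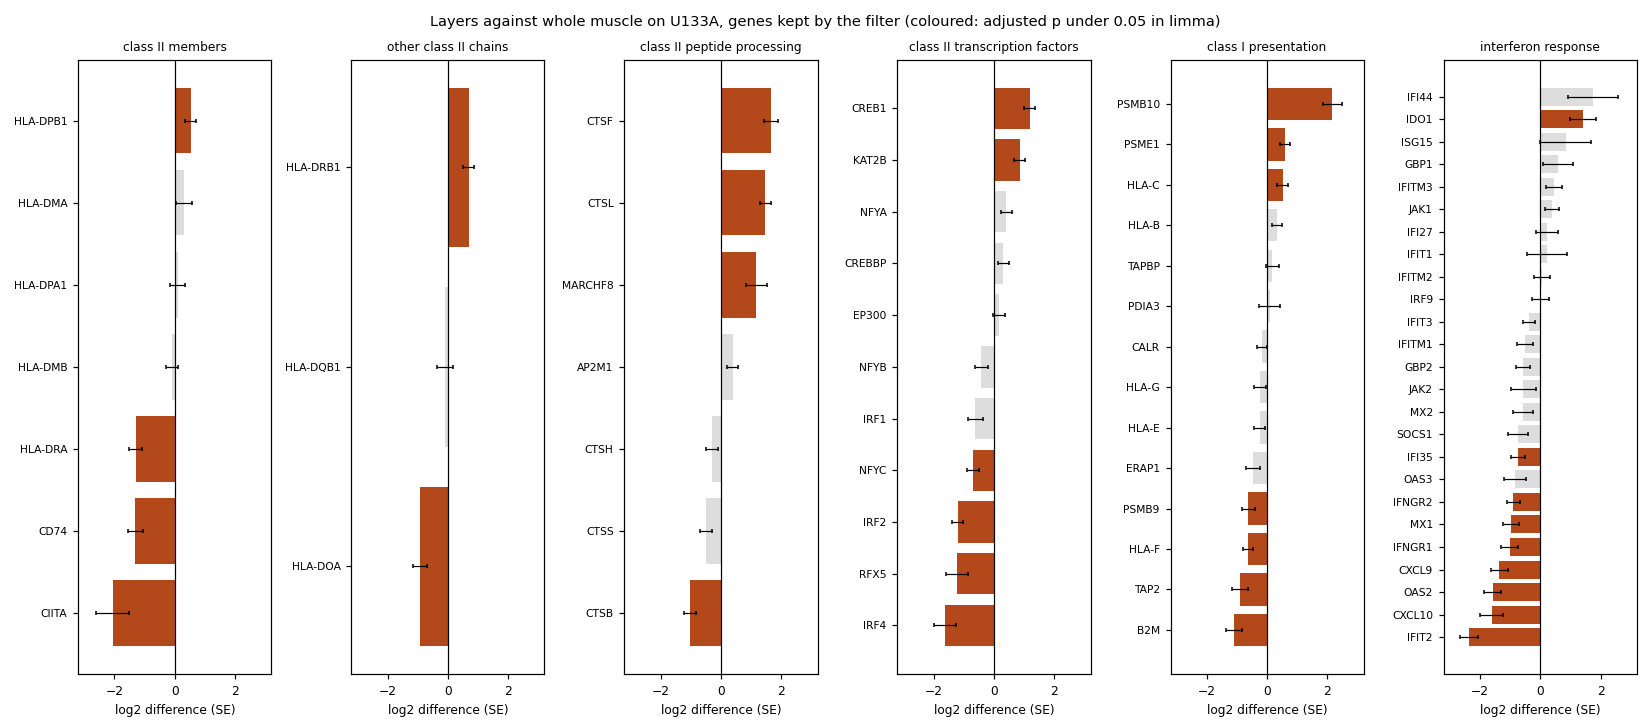
Log2 difference with its SE between layers and whole muscle on U133A for every tested gene of 6 lists, coloured where the adjusted p was under 0.05. Called genes lie on both sides of 0 in each list, and most of the called interferon response genes, 8 of 9, lie below it.

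Markers of other cell types differed in how they compared between layers and whole muscle. Of 15 dendritic cell markers on U133A, 4 were tested and 2 fell in the layers, the lipid-presenting CD1A (-2.14 ± 0.29, adjusted p = 2.17e-04) and the costimulator CD80 (-1.47 ± 0.29, adjusted p = 0.00182). The other 2 did not pass, and 30.1% of the table was called lower. The summed level of the 15 ran from 4638 to 6388 units on the layer arrays and from 12169 to 14965 on the whole muscle arrays. Of 10 B cell markers 3 were tested and all of these fell, MS4A1 (-0.93 ± 0.24), CD79A (-1.02 ± 0.23) and CD22 (-0.93 ± 0.26), while 3 others were at the floor on all 8 arrays. The B cell sum ran from 3464 to 4226 units in the layers and from 5722 to 7749 in whole muscle. The 12 T cell markers summed to 3634 to 4319 and 7557 to 10533 units, with 1 gene tested and not passing, and the 10 neutrophil markers to 3208 to 3872 and 7300 to 11674. Most markers in these 4 sums were too dim to be tested, some below the floor, and the whole muscle arrays had the higher median intensity, so the sums are no measure of how many such cells a sample held.

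On U133A the 20 macrophage markers overlapped between the groups in their sum. It ran from 18447 to 23625 units in the layers and from 21688 to 25648 in whole muscle. Of 10 tested, MRC1 rose (0.53 ± 0.17), FCER1G fell (-0.87 ± 0.18) and 8 did not pass, with a median of -0.09. CD163, a scavenger receptor of tissue macrophages, was at 1377 and 1441 units, and LAPTM5, a leukocyte lysosomal protein, at 3845 and 3833 in layers and whole muscle. On U133B 3 macrophage markers summed to 1074 to 1974 units in the layers and 1957 to 4215 in whole muscle. The 1 of these that was tested fell in the layers, at -1.16 with no overlap. The 13 endothelial markers summed to 22698 to 31643 and 24279 to 34324 units, with VWF (-0.73 ± 0.19) and TEK (-1.10 ± 0.41) lower out of 9 tested. The 10 fibroblast markers were all tested, with 1 higher and 2 lower. On U133B both lists summed higher in the layers. There 6 endothelial markers summed to 25031 to 28587 units in the layers and 8502 to 14670 in whole muscle, with 2 of 4 tested higher (FLT1 1.76 ± 0.30, EMCN 1.29 ± 0.20), 0 lower and a median of 0.94. The 4 fibroblast markers on U133B summed to 12825 to 18302 and 6401 to 7727 units, with 2 higher, 1 lower and a median of 1.15. Of all 10547 probe sets tested on U133B, 20.5% were called higher and 22.3% lower, and their median was -0.21. The 7 class II genes themselves summed to 23080 to 30791 units in the layers and 28987 to 36867 in whole muscle, overlapping between the groups. The part of these cell types, of the lower median intensity and of the ACTB ratio in the class II differences was not tested.

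**Figure D4:**
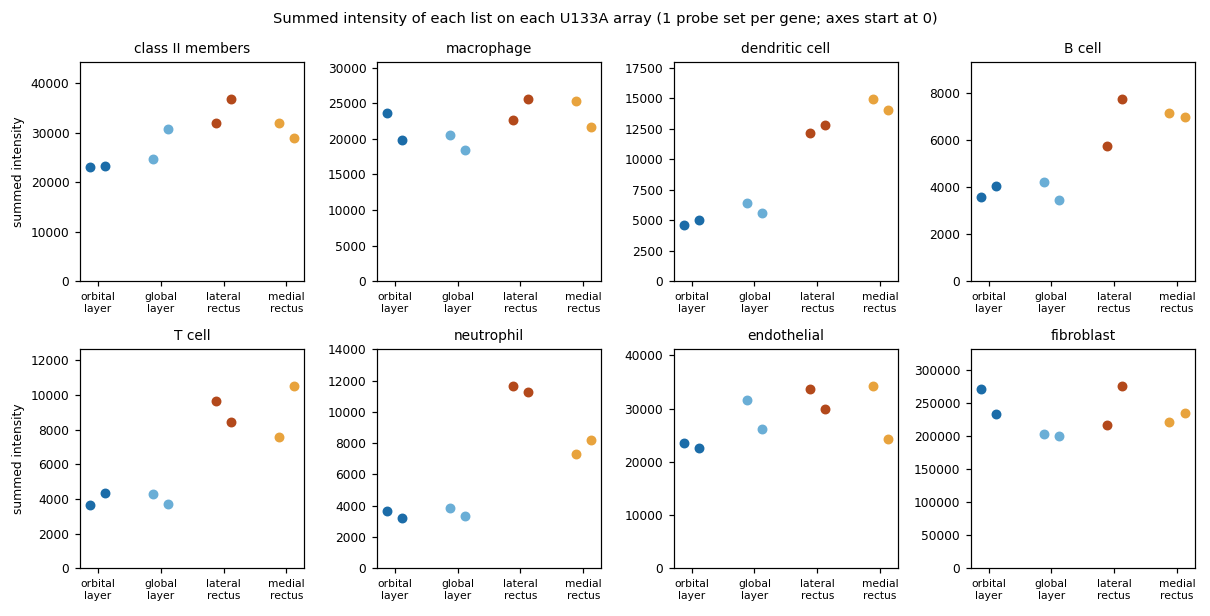
Summed intensity of the class II genes and of 7 marker lists on each U133A array, with axes starting at 0. Most dendritic cell, B cell, T cell and neutrophil markers were too dim to be tested. Dendritic cell, B cell, T cell and neutrophil sums are higher on all whole muscle arrays, and the sums of the class II genes, macrophage, endothelial and fibroblast markers overlap between layers and whole muscle.

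The mean log2 profile of the 7 genes over the 8 U133A arrays, 1 probe set each and centred on 0, was -0.59 and -0.37 in the orbital layer, -0.19 and 0.05 in the global layer, 0.34 and 0.40 in the lateral rectus and 0.35 and 0.01 in the medial rectus. Among 9291 probe sets of other genes, the profiles most like it were those of FBXO31 (Pearson r = 0.980), VWF (0.976), GAL (0.969), KLF15 (0.966), CSNK2A1 (0.961), SNAP25 (0.959), COA1 (0.957) and RAB3IL1 (0.956). These are descriptions over 8 arrays that share the split into layers and whole muscle. With the layers and whole muscle each centred on their own mean, the order became SDHC (0.981), DDAH1 (0.979), MRPS18A (0.962), FBXO31 (0.952), VDAC1 (0.946), DLAT (0.945), FGF13 (0.939) and DNAJC4 (0.936), and FBXO31 was the 1 gene in both lists.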

How the data were processed

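The deposited tables hold linear intensities, 1 for each probe set on each array, already scaled by the authors: after trimming 2% of values at either end, array means lay between 1500.22 and 1500.67. The summary software was not given in the sources used here. Arrays were scaled to a common trimmed mean, values under the 20th percentile of a table (146.487 on U133A, 218.465 on U133B) were set to that percentile, and the log2 was then taken. Probe sets were kept for a comparison when their mean log2 level reached that of the table's median (653.942 and 802.702), with the 68 control probe sets per table excluded. The tables were fitted separately in limma 3.58.1 (R 4.3.3) with an intensity trend and Benjamini-Hochberg adjustment over all kept probe sets. Tests were two-sided. The fits were also run on simulated data with independent noise and known changes. That simulation held no amplification or shared array effect, so it does not show how the tests perform on these arrays. Figures were drawn with Python 3.11.15, pandas 2.3.3 and matplotlib 3.10.9. The number of arrays limits the precision.

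Members, gene lists, tests and alternatives were chosen with earlier results of these data known. Named genes are all member probe sets, and list genes that passed or had the smallest p; each list gene is its brightest probe set with 1 symbol. The 6 probe sets that join another class II chain with further symbols were not named. MRC1, FCER1G, CD163, LAPTM5, CTSS and the other markers printed singly were picked after their values were seen. Arrays were grouped by title, and 4 unnumbered rectus arrays were numbered in order of deposit. No sequence is shown because none was given here. Alternatives were quantile normalization, other floors and filters, no trend, 1 fit over all groups, a replicate block for the layers, and leaving out each array.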

Additional observations from a re-analysis of the deposited data

How the results depend on the processing

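Of 358 values that alternatives gave for single class II probe sets, 319 kept their direction and their side of the threshold, 31 turned their direction, 6 lost a call and 2 gained one. The HLA-DRA 208894_at and CD74 calls in layers against whole muscle held in every alternative run, from -1.57 to -1.11 (adjusted p 4.66e-04 to 0.00748) and from -1.55 to -1.14 (2.64e-04 to 0.0114). CIITA 210925_at ran from -2.43 to -1.46, and it was too dim for the stricter filter. It lost its call in limma without a filter (-2.06, adjusted p = 0.0542). There more probe sets were tested, and the SE of 210925_at was 0.66, beside 0.55 in the main fit. Without a filter CIITA 211884_s_at was called lower in the layers (adjusted p = 0.0403 in limma), with all 4 layer arrays below the floor. Over the alternatives for layers against whole muscle on U133A, between 3 and 4 class II probe sets were called, and the table-wide calls ran from 2513 to 6572. On U133B, 1 class II probe set was called without the intensity trend (-0.89, beside 41.9% of the table) and the median moved to -0.42 under quantile normalization. Between the layers on U133A, leaving out single arrays gave a median of -0.44 to 0.048, and between the muscles a median of -0.35 to 0.048. The call gained between the layers was that of HLA-DPA1 211990_at (-1.86). It came from a fit with a single orbital array, so no weight is put on it. Table-wide calls between the layers ran from 0 to 144 on U133A, where 39 was the main count and 0 followed with no filter, and from 0 to 28 on U133B; between the muscles they ran from 0 to 9 and stayed at 0. HLA-DRA 210982_s_at in layers against whole muscle turned to 0.50 under quantile normalization and 0.24 with the floor at the 40th percentile. The other reversals came from leaving out 1 array, always in values that had not passed. Between the layers the ranges were -0.50 to 0.0014 for HLA-DMB, -0.23 to 0.68 and -0.65 to 1.15 for HLA-DRA 208894_at and 210982_s_at, -0.41 to 0.15 and -0.19 to 0.35 for HLA-DPA1 211991_s_at and 213537_at, and -0.51 to 0.40 for HLA-DMA. Between the muscles they were -0.23 to 0.13 for HLA-DPB1 on U133A, -0.25 to 0.19 on U133B, -0.32 to 0.20 for HLA-DMB, -0.57 to 0.12 for HLA-DRA 208894_at, -0.35 to 0.067 for CD74, -0.91 to 0.31 for CIITA 210925_at, and -0.39 to 1.05 and -0.45 to 0.43 for HLA-DPA1 211990_at and 211991_s_at. In layers against whole muscle they were -0.21 to 0.027 for HLA-DMB, -0.35 to 0.61 for HLA-DRA 210982_s_at, and -0.71 to 0.20 and -0.044 to 0.25 for HLA-DPA1 211990_at and 211991_s_at. The cause of these changes was not tested. The replicate block between the layers called 0 class II probe sets (median -0.13) and 92 in the U133A table, and 26 in U133B; the replicates' deviations correlated at 0.256 and 0.132, and with 2 pairs the numbers were not taken to pair samples. No paired analysis was possible between the muscles because their labels share fewer than 2 numbers per table.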

Other observations

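Of 25 interferon response genes tested on U133A, 12 were brighter on replicate 1 than on replicate 2 in all 4 groups, 6 in 3 groups, 4 in 2 and 3 in 1. The antiviral gene IFIT1 read 6948.2 and 1514.7 units in the orbital layer, 9443.0 and 1475.1 in the global layer, 7274.7 and 1528.3 in the lateral rectus and 4928.1 and 1439.7 in the medial rectus. ISG15, the ubiquitin-like modifier, read 2700.3 and 486.5, 2849.7 and 384.0, 1761.7 and 297.4, and 1521.1 and 170.0 in the same order. GBP1, a guanylate-binding protein that interferon gamma induces, read 5496.4 and 1417.3, 5091.1 and 1620.2, 2514.1 and 1187.3, and 3786.2 and 1099.5. The higher value of each pair is that of replicate 1. Other induced genes did not follow: CXCL10 read 1781.4 and 2013.3 units in the lateral rectus and 1937.6 and 2036.9 in the medial rectus, and MX1 read 1231.1 and 1508.7 in the lateral rectus. Of the 12 class II probe sets on U133A, replicate 1 was the higher in all 4 groups for 2, CD74 and HLA-DPA1 211990_at, in 3 groups for 2, in 2 for 3, in 1 for 2 and in 0 for 3. The other HLA-DPA1 probe sets went against 211990_at, with replicate 1 higher in 2 groups for 211991_s_at and in 0 for 213537_at. The genes named were picked after their values were seen, no test was made, and the labels do not say whether these 4 arrays share an animal. The share of all probe sets brighter on replicate 1 in all 4 groups was not counted, so these counts have no background beside them. Unnumbered rectus arrays took their replicate number from the order of deposit, and orbital layer replicate 1 is the array whose labels disagree.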
